A study of Triticum aestivum with 12 samples.

Results

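The regions described here are the loci that held at least 1 read in every one of 12 wheat methylome libraries while their mean count over the libraries stayed below 40. They were taken from a single table of covered genome sections (loci), each with its raw read count in each library. Of 11509120 loci in that table, 101275 met the rule, 0.880% of the loci, and together they covered 364 Mb of 8566 Mb of covered sequence. A count was present in all 12 libraries at 102267 loci, and the limit on the mean set aside 992 of them. The rule was applied to the counts themselves, so the presence of these loci in each library and the upper limit of their mean are properties of the choice and not results.

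The libraries came from methylated DNA immunoprecipitation sequencing (MeDIP-seq) of leaves of bread wheat, Triticum aestivum, variety Mv Beres, grown hydroponically. Plants grew under white (W) or blue (B) light at 250 µmol per square metre and second, and from 7 days after germination those given putrescine (PUT) had 0.5 mM of it in the nutrient solution for 7 more days. The 4 groups were W light without PUT (WC), W light with PUT (WP), B light without PUT (BC) and B light with PUT (BP), with 3 biological repetitions each. All plants shared 1 variety and 1 PUT dose, and each group is known here from 3 libraries. What was asked of the regions was where they lie, how long and how deep they are, and whether their counts differ between light spectra and with PUT.

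In MeDIP, an antibody against 5-methylcytosine pulls down fragments of DNA, so the number of reads at a place rises with the amount of methylated sequence there and with the length of the stretch counted as 1 locus. In plants cytosine is methylated in the CG, CHG and CHH contexts, most densely over transposable elements and other repeats, which make up the bulk of the wheat genome. Methylation inside gene bodies occurs mainly in the CG context. Bread wheat carries 3 related subgenomes, A, B and D, with 7 chromosomes each. PUT is a diamine and the precursor of spermidine and spermine, whose synthesis draws on S-adenosylmethionine, the methyl donor that DNA methyltransferases also use.

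The loci were long. Their median length was 3352 bp (5th to 95th percentile 1736 to 6307 bp, range 28 to 12542 bp), against 522 bp over all loci, and 91689 of them, 90.5%, reached at least 2000 bp, a length that 5.10% of all loci reached. The median was 2326 bp for the 539307 loci tested below and 2560 bp for loci with reads in exactly 11 libraries. It was 7553.5 bp for the 992 loci with reads in all libraries and a mean of 40 or more. Being long was thus shared with other well-covered loci. The share of loci that met the rule rose with length in each class up to the longest. It was 0.00167% up to 500 bp, 0.0113% from 501 to 1000 bp, 0.481% from 1001 to 2000 bp, 7.11% from 2001 to 3000 bp, 26.0% from 3001 to 4000 bp and 48.1% from 4001 to 5000 bp. Above that it was 69.3% up to 7500 bp and 70.2% for the 2490 loci above 7500 bp. In the table as a whole, 3699544 loci, 32.1%, had reads in only 1 library. The longest was chr1A:134846872-134859413, at 12542 bp, with 5, 38 and 78 reads from WC, 73, 34 and 47 from WP, 27, 21 and 22 from BC and 61, 30 and 20 from BP. The shortest that could be tested was chr7B:655692525-655692552, at 28 bp, with 39, 6 and 11 reads from WC, 24, 21 and 6 from WP, 33, 93 and 44 from BC and 16, 21 and 136 from BP.

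Per length, the loci were about as dense in reads as the tested loci. Their mean count over the 12 libraries had a median of 11.8 (5th to 95th percentile 6.42 to 24.3), and per kb of locus the median was 3.55, against 1.61 over all loci, close to the 3.44 of the 539307 loci tested and below the 7.17 of the 992 loci with reads in all libraries and a mean of 40 or more. In 33506 of them, 33.1%, the library with the fewest reads held a single read, in 23764 it held 2, and in 1582, 1.56%, every library held more than 10. Presence in every library thus rested on a single read in at least 1 library for 33.1% of the loci, and input DNA was not used here to set a background, so the loci are called covered in all 12 libraries and not methylated. At the upper limit, the 3 loci just inside had mean counts of 39.9, and the 3 just outside were at the limit itself. Just inside, chr4A:675195320-675204207 had 70, 43 and 38 reads from WC, 38, 46 and 38 from WP, 51, 21 and 29 from BC and 54, 45 and 6 from BP. Just outside, chr3A:44339185-44348243 had 34, 59 and 59, then 44, 18 and 34, then 23, 39 and 39, and 46, 41 and 44 in the same order of groups. The limit thus divided loci of like counts and length.

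The libraries held between 15812048 and 21355140 counted reads, and the number of loci with at least 1 read ranged from 1563154 in WC1 to 4482038 in BC1. WC1, the first WC library, stood apart with the fewest covered loci, the next lowest being WP3 with 2459521. It was also the library most often missing where a locus fell just short of the rule. Among 189317 loci with reads in exactly 11 libraries, the missing library was WC1 in 72455, 38.3%, BC2 in 20412 and WP3 in 18402, and it was WP1 in only 4513. Between libraries, log2 scaled counts of those loci covered in all 12 libraries that were tested correlated weakly. For them r ran from 0.0258 to 0.321 (median 0.239) over 12 pairs within groups and from -0.0226 to 0.340 (median 0.188) over 54 pairs between groups, as a description over loci that share library depth. Over all tested loci the medians were 0.247 within and 0.156 between groups. Among the loci covered in all 12 libraries, the lowest value within a group was that of BP1 with BP3.

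The share of a library's reads that fell on these loci was lower under B light. It was 9.12, 8.00 and 8.27% for WC (8.46% ± 0.584, SD, n = 3), 8.41, 8.27 and 8.22% for WP (8.298% ± 0.104), 5.72, 4.90 and 5.39% for BC (5.34% ± 0.409) and 7.77, 6.24 and 4.88% for BP (6.30% ± 1.45). Every B library lay below every W library, and the BP group spread almost from the level of BC to that of WC. Over the 6 libraries each, the mean was 8.38% ± 0.386 under W and 5.82% ± 1.09 under B, a difference of -2.56 percentage points, given without a test because the loci were chosen on the same counts. The B libraries also covered more loci in all, with a mean of 4041980 against 2659570. Taken over the tested loci, as the reads on the 86687 of these loci that entered the test over the reads on all 539307 tested loci, the difference was -3.85 points, with 27.1% ± 2.37 under W and 23.197% ± 2.17 under B, and the libraries then overlapped, BP1 at 26.02% lying above WC2 at 25.7%. With PUT the share was 7.30% ± 1.43 against 6.90% ± 1.77 without (n = 6 each), a difference of 0.398 points, inside the spread between libraries. Leaving out 1 library moved it between -0.00122 points, without BC2, and 0.882 points, without BP3, and over the tested loci it was -1.34 points.

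**Figure D1:**
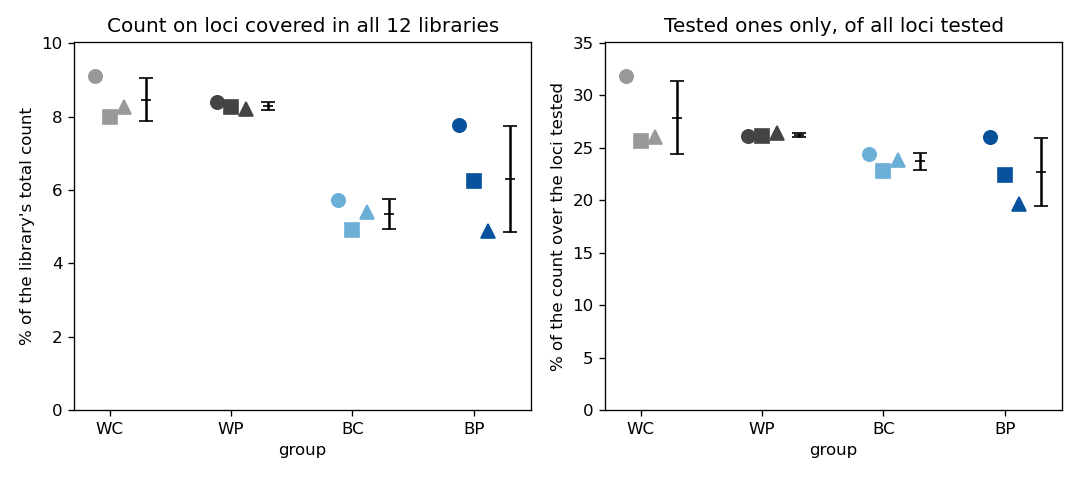
Share of each library's reads that fell on the 101275 loci covered in all 12 libraries, as a percentage of the library's total (left), and share that fell on the 86687 of them that were tested, as a percentage of the reads over all tested loci (right). Each symbol is 1 library (circle, square and triangle for repetitions 1 to 3) and the black bar is the group mean with its SD (n = 3). On the left, the 6 B libraries lie between 4.88 and 7.77%, below the 6 W libraries at 8.00 to 9.12%, while on the right BP1 lies among the W libraries.

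The reads of a library were not spread over short and long loci in the same way. Counts were scaled to the mean effective library size, that is, the total over the tested loci times a factor from the trimmed mean of M-values (TMM). In loci up to 500 bp the mean scaled count was 25.9 in BP3 and 16.9 in BC2, against 9.13 to 13.2 in the other 10 libraries. The medians over the 92 loci of that class did not set BP3 apart, at 8.94 in BP3, 8.73 in BC2, 9.70 in BC3 and 4.00 to 7.60 in the others. In loci above 7500 bp the order was turned, with 21.01 in BP3, 22.2 in BC2 and 19.3 in WC1 against 28.5 to 36.02 in the others. From 2001 to 4000 bp, where 58948 of the loci lie, the 12 libraries were close together, for example at 10.97 to 13.1 from 3001 to 4000 bp. BP1 lay among the W libraries at both ends. From 501 to 1000 bp, however, the means of all 6 B libraries, at 8.73 to 15.1, lay above those of all 6 W libraries, at 7.21 to 8.64. The medians of that class overlapped, with BP1 at 5.55 against 5.40 to 6.07 in the W libraries. The other B libraries had medians of 6.08 to 7.28.

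**Figure D2:**
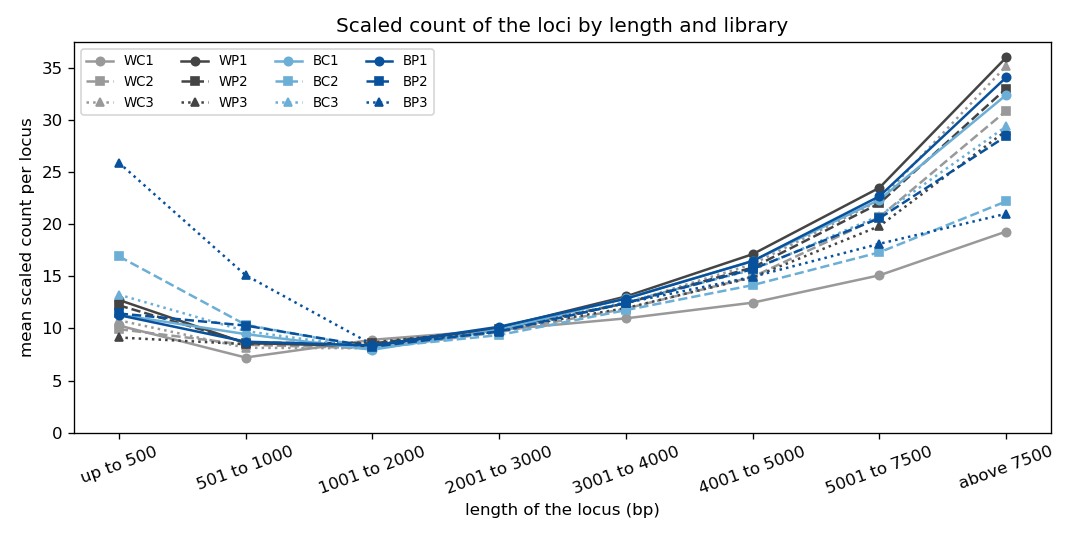
Mean scaled count per locus of the loci covered in all 12 libraries, by length class (x axis, bp) and library (lines, coloured by group, with line style and symbol for repetitions 1 to 3). BP3 reaches 25.9 in the shortest class, above BC2 at 16.9 and all others, and in the longest class WC1, BP3 and BC2 lie lowest, between 19.3 and 22.2.

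By subgenome, 32226 of the loci lay on the A, 34624 on the B and 34425 on the D chromosomes. Per Mb this was 6.48, 6.60 and 8.60, and in all 7 homoeologous groups the D chromosome had the highest density. The highest was that of chr4D, 9.79 per Mb, and the lowest that of chr1B, 4.06 per Mb. The D chromosomes were not simply richer in covered loci, with 836 per Mb against 823 on A and 775 on B. The share of all loci that met the rule was 1.03% on D, 0.851% on B and 0.787% on A. The tested loci, which include most of these loci, leaned to D too. D held 32.43% of the tested loci, against 29.08% of all loci and 33.99% of these loci. Among tested loci, the share that met the rule was 17.08% on D, 16.22% on B and 14.96% on A. The lean to D was thus in part shared with the tested loci. None of the 36 loci of the mitochondrial sequence met the rule. Along the chromosomes the loci were most frequent in the middle. Of 10 equal parts of the chromosome length, the first held 5.67% and the last 4.82%, while the fourth to the sixth held 12.7 to 13.2% each, where all loci ran from 9.13 to 10.5% per part. The loci tested as a whole, which include most of these loci, had nearly the same profile. They held 5.80% in the first part and 12.97% in the fifth, so the profile was not particular to these loci. Neighbouring loci were a median of 74.1 kb apart (5th to 95th percentile 2.101 to 447 kb). In bins of 10 Mb the median number was 76, and the highest was 162, between 170 and 180 Mb on chr1D, where they made up 2.13% of the covered loci.

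**Figure D3:**
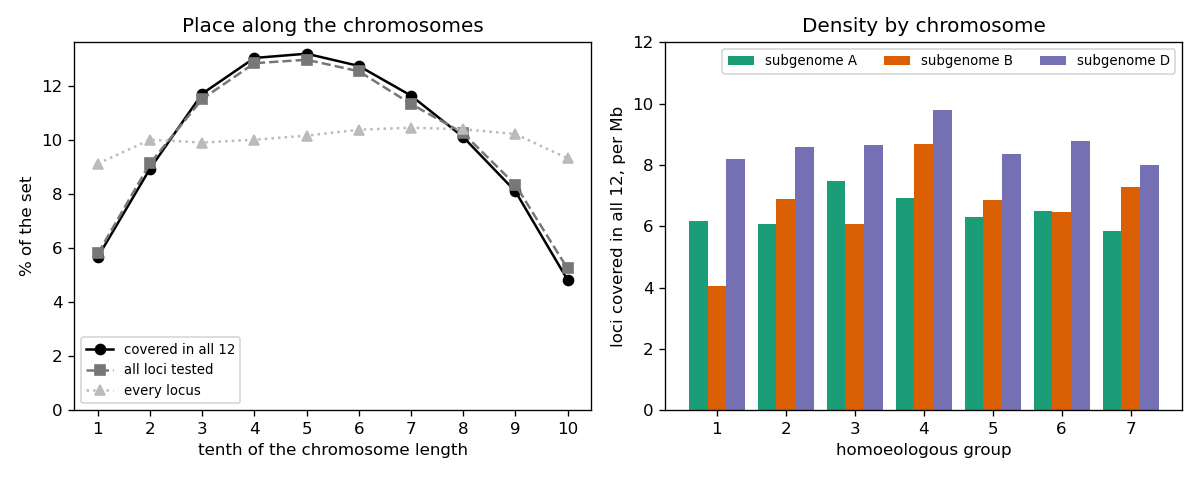
Left, percentage of the loci covered in all 12 libraries, of all loci tested and of every locus in each of 10 equal parts of the chromosome length, over 21 chromosomes. Right, loci covered in all 12 libraries per Mb on each chromosome, by homoeologous group and subgenome; D is highest in all 7 groups, and chr1B is lowest at 4.06 per Mb.

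One long stretch of the genome was almost bare. In the first 240 Mb of chr1B, a limit set after the bins were seen, only 31 loci met the rule, 0.129 per Mb, against 6.11 per Mb on the rest of chr1B and 7.40 and 8.61 per Mb in the first 240 Mb of chr1A and chr1D. Of the 24 bins of 10 Mb in it, 9 held no such locus, and none of the other 1388 bins was without one, the lowest having 2. The largest gap between neighbouring loci, 41.02 Mb, lay on chr1B. All covered loci were scarce there, not only these, with 159 per Mb against 795 on the rest of the chromosome, and the scarcity was present in each library. Between 10.8 and 21.8 loci per Mb held reads in a library, against 105 to 301 on the rest of chr1B. Annotated protein-coding genes were not scarce, at 5.88 per Mb against 6.91. These 31 were short, at a median of 1048 bp, with 15 below 1000 bp. One of them, chr1B:22655712-22658757, overlapped LOC123104557, a gamma-gliadin-like gene of the seed storage proteins, with 17, 7 and 3 reads from WC, 7, 8 and 3 from WP, 13, 35 and 24 from BC and 16, 18 and 11 from BP.

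Few of the loci touched annotated genes. With an overlap of at least 1 bp, 2486, 2.45%, lay in a protein-coding gene, against 2.08% of all tested loci, 2.08% of the loci with reads in exactly 11 libraries and 13.8% of the 992 loci with a mean of 40 or more. Another 838 overlapped a pseudogene, 565 a long noncoding RNA, 58 a ribosomal RNA gene and 22 a transfer RNA gene. They touched 2337 protein-coding genes, of which 2184 held 1 such locus and 3 held 5 or more. Among tested loci of like length, the share in a protein-coding gene was higher than for loci with no read in at least 1 library in every length class, for example 4.77% against 2.19% from 1001 to 2000 bp, 3.21% against 1.85% from 2001 to 3000 bp and 1.77% of 1749 against 0.806% of 248 above 7500 bp. Above 7500 bp it was 13.4% of the 493 loci with reads in all libraries and a mean of 40 or more. Within 3000 bp of a protein-coding gene lay 6.82% of the loci, against 6.37% of all tested loci.

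The gene with the most of them was LOC123039385 on chr2B, a gene of 69596 bp that held 6 loci of 508 to 1502 bp. The most deeply covered of these, chr2B:676202201-676202708, had 3, 40 and 30 reads from WC, 48, 31 and 20 from WP, 26, 43 and 22 from BC and 32, 33 and 26 from BP. All groups overlapped at it, and WC1 alone was low. LOC123084317 on chr4A, named in the study's tables as a mitochondrial-like FTSH 4 protease, which degrades damaged membrane proteins, held 5 loci over 27311 bp. The longest, chr4A:699472526-699478804, had 42, 48 and 21 reads from WC, 50, 30 and 24 from WP, 25, 4 and 28 from BC and 44, 23 and 11 from BP. LOC123157986 on chr7B, a gene of 110065 bp, also held 5. None of these 16 loci was called in the comparisons of light or PUT that follow. These 3 genes were picked out after their values had been seen.

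The most deeply covered loci inside an annotated gene were led by chr5D:292552509-292561521, which lies in the pseudogene LOC123124700. It had 37, 60 and 55 reads from WC, 48, 56 and 50 from WP, 36, 10 and 12 from BC and 54, 36 and 25 from BP. The next, chr7A:112485131-112491041 in the protein-coding gene LOC123154244, had 29, 25 and 52, then 42, 71 and 36, then 47, 14 and 39, and 44, 67 and 11 in the same order of groups. At the first, every BC library had fewer raw reads than every WC and WP library, but scaled counts of BC overlapped those of WC. At the second all groups overlapped. Neither was called in any comparison. Of the 10 such loci, 5 lay in protein-coding genes, 4 in long noncoding RNA genes and 1 in a pseudogene, with mean counts from 38.7 to 39.9.

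The evenness of the loci over the libraries was measured as the coefficient of variation of scaled counts. Its median was 0.608 (5th to 95th percentile 0.404 to 0.898), and counts scattered by a median of 4.44 times their mean in variance. The most even tested locus was chr4A:403623021-403633264, of 10244 bp, with a coefficient of 0.140. Its reads were 51, 47 and 49 from WC, 38, 36 and 34 from WP, 31, 26 and 40 from BC and 35, 34 and 28 from BP. The libraries lay close together once scaled, although all WC libraries stayed above all WP and BP libraries. The next were chr6B:602435701-602439984 at 0.152 and chr1A:221076033-221078083 at 0.172. The latter, of 2051 bp, had 14, 16 and 17 reads from WC, 18, 21 and 14 from WP, 13, 15 and 15 from BC and 14, 15 and 13 from BP. Among loci that touch a protein-coding gene, the most even were chr2D:420881532-420887896 in LOC123055813, with a coefficient of 0.236, and chr1B:249141108-249148332 in LOC123118018, with 0.245. The former had 27, 19 and 31 reads from WC, 30, 28 and 24 from WP, 24, 11 and 21 from BC and 34, 18 and 17 from BP.

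Group differences were tested with edgeR's quasi-likelihood test on the 539307 loci where any group had 2 or more libraries with over 10 reads. Of the loci covered in all 12 libraries, 86687 entered the test and 14588, with a median mean count of 7.17, did not. To be called, a locus needed an unadjusted p below 0.01 together with a log2 fold change of more than 1.5 in size. Loci with an adjusted p below 0.05, adjusted over all tested loci, are counted separately. Because the rule demands a read in every library, a locus at 0 in 1 group could not be among them. A share of calls under that of all tested loci is therefore not read as a result about these loci. How much of it came from the choice was not tested. The test took the spread from the trend over all loci, and with infinite prior degrees of freedom a locus's own spread had no weight in its p. That trend gave the loci a dispersion of 0.648, while a fit to these loci alone gave 0.318. In the comparisons that follow, 0.473 to 3.03% of these loci had an unadjusted p below 0.05. That is less than the threshold itself would give without any difference. A lack of calls is therefore not read as an absence of differences.

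Under B light pooled over PUT, 499 loci were called higher and 56 lower than under W light, and 22 were higher at an adjusted p below 0.05 (edgeR). DESeq2 put 700 higher and 80 lower at that level, beside 18313 of all 539307 tested loci in either direction. An edgeR fit on these loci alone, added after the data were seen, put 264 higher and 15 lower at that level. Higher calls made up 0.576% of the loci tested, beside 3.98% of all tested loci, lower calls 0.0646% beside 0.29%, and the 22 loci stood beside 0.184% of all tested loci at that adjusted p. The median log2 fold change was -0.06 (5th to 95th percentile -1.04 to 1.14), against 0.17 over all tested loci. The direction of the calls hung on the scaling, and their number on single libraries. With library sizes alone 207 were higher and 248 lower, with library sizes summed over every locus 31 were higher and 1180 lower, and with relative log expression (RLE) factors 921 were higher and 43 lower. Among all 539307 tested loci, these 3 scalings called 15260 higher and 3207 lower, 7815 and 7788, and 28753 and 1317, in that order. The median log2 fold change of the loci covered in all 12 libraries was -0.27, -0.58 and 0.01 under the 3 scalings. In each of the 12 fits that left out 1 library more loci were called higher than lower. Without BP3, 138 were called higher and 44 lower, and 119 of the 499 were still called higher. Without BC2 the calls were 257 and 38, without WC1 678 and 158, and without BP1 758 and 139. BP3 held the highest scaled count at 348 of the 499 loci. In 267 loci every B library lay above every W library, 0.308% beside 0.668% of all tested loci, and in 218 every one lay below, 0.251% beside 0.16%.

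**Figure D4:**
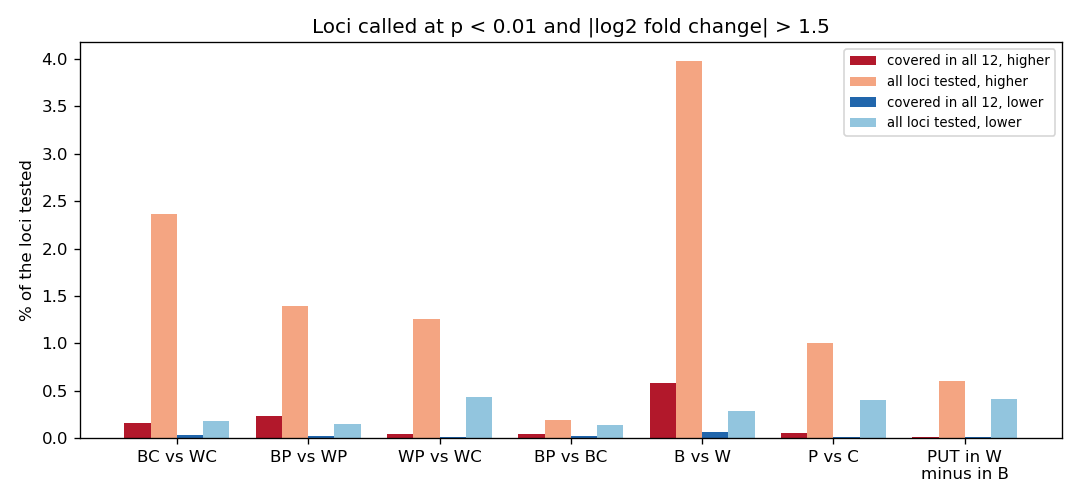
Percentage of the tested loci called higher (red) or lower (blue) by the rule in the text in 7 comparisons, for the 86687 loci covered in all 12 libraries (dark) and for all 539307 loci tested (light). The largest dark bar is B vs W, higher, at 0.576%, beside 3.98% of all tested loci.

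BP3 was the highest library in 19 of the 22 loci, in 12 of them with BP2 and BC2 next, and it held a median of 43.9% of their reads in the 6 B libraries. Their median length was 2364 bp and 9 were shorter than 1000 bp. The smallest p belonged to chr2B:222878952-222879592, of 641 bp and outside annotated genes. It had 2, 8 and 5 reads from WC, 9, 11 and 2 from WP, 8, 32 and 21 from BC and 5, 51 and 191 from BP. BC1 and BP1 were no higher than WP libraries, so light groups overlapped. The log2 fold change was 3.15 ± 0.56 (SE; adjusted p = 0.000235, edgeR), and without BP3 it was 2.23, with an adjusted p of 0.376. Here and below, the SE was taken back from the test, as the size of the log2 fold change over the square root of the F statistic. It rests on the trend over all loci and does not measure the spread among libraries at the locus. The next, chr1D:464650938-464651492, of 555 bp, had 2, 20 and 9 reads from WC, 9, 13 and 12 from WP, 5, 55 and 17 from BC and 6, 91 and 209 from BP. Its log2 fold change was 2.64 ± 0.50 and 1.98 without BP3, and again BC1 and BP1 lay within the W range. At chr5B:146397626-146397950 the fold change on the log2 scale went from 2.44 to 0.25 when BP3 was left out. In all, 2 of the 22 loci kept an adjusted p below 0.05 without BP3 and 15 were still called, and without BC2 the numbers were 2 and 20.

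**Figure D5:**
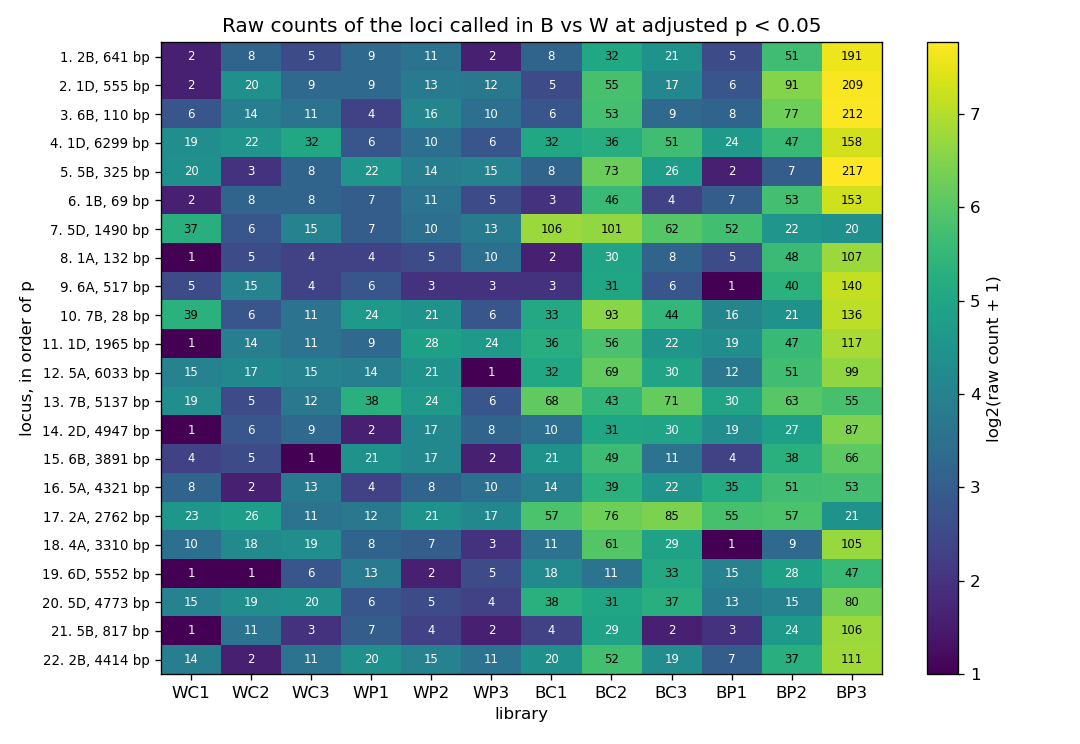
Raw read counts (numbers in the cells; colour, log2 of the count plus 1) in the 12 libraries of the 22 loci higher under B than W light at an adjusted p below 0.05, in order of p, each named by chromosome and length. BP3 is the highest library in 19 of them, while the chr5D locus of 1490 bp and the chr2A locus of 2762 bp are high in the 3 BC libraries.

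Several of the short loci with BP3, BP2 and BC2 highest lay at the very ends of the assembled chromosomes. Within 20000 bp of the first base or of the last covered base of a chromosome, 20 loci met the rule. Of these, 7 were called higher and 0 lower in B vs W, and BP3 was highest in 7. Beside this stood 3.98% of all tested loci called higher and 0.576% of those covered in all 12 libraries. The group was formed after leading loci of B vs W had been seen at chromosome ends, and it includes those loci. Its share of calls is therefore not read as a result about chromosome ends. At chr6B:2326-2435, of 110 bp, the reads were 6, 14 and 11 from WC, 4, 16 and 10 from WP, 6, 53 and 9 from BC and 8, 77 and 212 from BP. At chr1A:1-132 they were 1, 5 and 4 from WC, 4, 5 and 10 from WP, 2, 30 and 8 from BC and 5, 48 and 107 from BP. At chr6A:1-517 they were 5, 15 and 4, then 6, 3 and 3, then 3, 31 and 6, and 1, 40 and 140. BC2, BP2 and BP3 were the 3 highest libraries at each of these loci. Not every end locus followed, since chr7D:642920260-642921156 had 23, 62 and 71 reads from WC, 57, 43 and 34 from WP, 40, 13 and 24 from BC and 53, 35 and 8 from BP, with BP3 the lowest. Chromosome ends of plants carry telomeric and subtelomeric repeats.

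The 2 loci that kept an adjusted p below 0.05 without BP3 had another pattern, high in all 3 BC libraries. The first, chr5D:486595207-486596696, lies inside LOC123123054, which the study's tables name maturase K, the splicing factor that plants encode in the plastid genome. It had 37, 6 and 15 reads from WC, 7, 10 and 13 from WP, 106, 101 and 62 from BC and 52, 22 and 20 from BP. BC lay above every other library, and BP lay above WP while it overlapped WC. The log2 fold change of B vs W was 2.25 ± 0.49 (adjusted p = 0.0138, edgeR; 0.00297 without BP3), and that of BC vs WC was 2.76 ± 0.70 (adjusted p = 0.150). The second, chr2A:58683964-58686725, overlaps a transfer RNA gene, TRNAC-GCA. It had 23, 26 and 11 reads from WC, 12, 21 and 17 from WP, 57, 76 and 85 from BC and 55, 57 and 21 from BP. Scaled counts of all B libraries lay above all W libraries there, with a log2 fold change of 1.94 (adjusted p = 0.0435; 0.0221 without BP3). With library sizes summed over every locus, 0 of the 22 loci stayed at an adjusted p below 0.05, these 2 included, although 19 were still called higher.

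The other 3 loci with a transfer RNA gene that were called higher also had more reads in BC than in WP. At chr3A:284860021-284861378, which overlaps TRNAS-GGA, the reads were 31, 9 and 16 from WC, 6, 13 and 5 from WP, 22, 55 and 88 from BC and 26, 33 and 30 from BP, and the locus was called higher in B vs W (log2 fold change 2.07). At chr5D:506563488-506564434, with TRNAS-GCU, they were 36, 4 and 15, then 9, 3 and 6, then 40, 64 and 27, and 31, 31 and 19, with a log2 fold change of 2.04. At chr2D:36184394-36185631, with TRNAF-GAA, they were 47, 21 and 17, then 10, 10 and 14, then 54, 78 and 39, and 58, 21 and 18, with 1.58. WC1 was the highest W library at all 3, and the WP libraries were among the lowest. At chr1A:556483511-556484220, which overlaps LOC123067360 and LOC123067371, the latter named as subunit a of the chloroplast ATP synthase, the reads were 13, 16 and 8 from WC, 6, 6 and 37 from WP, 40, 37 and 23 from BC and 41, 11 and 14 from BP, and it was not called (log2 fold change 1.25). Of the 22 loci with a transfer RNA gene, 4 were called higher and 0 lower in B vs W, beside 3.98% and 0.29% of all tested loci, and the median log2 fold change of the 22 was 0.24. Other loci with the same gene names were not called, TRNAC-GCA on chr4A at -0.04, TRNAF-GAA on chr4A at -0.20 and on chr6B at 0.22, and TRNAS-GCU on chr4B at 0.39 and on chr5D at 0.47. These loci were grouped after their values had been seen. The loci of the table lie on the 21 chromosomes and the mitochondrial sequence.

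Lower under B light, the smallest p belonged to chr4B:17137693-17137733, of 41 bp, inside LOC123090630, named as a serine/arginine repetitive matrix protein 1-like gene, a family known for pre-mRNA splicing. It had 43, 31 and 60 reads from WC, 84, 8 and 6 from WP, 2, 6 and 6 from BC and 10, 3 and 5 from BP. WP2 and WP3 lay within the B range. The log2 fold change was -2.51 ± 0.66 (adjusted p = 0.0575, edgeR), and without WP1 it was -1.40 and no longer called. The next was chr7D:209066991-209072167, outside annotated genes, with 21, 60 and 42 reads from WC, 37, 55 and 24 from WP, 2, 5 and 1 from BC and 29, 5 and 6 from BP. The BC libraries, BP2 and BP3 lay below every W library, and BP1 alone of the B libraries reached the W range. Its log2 fold change was -2.43 ± 0.64 (adjusted p = 0.0593).

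In BC vs WC, light without PUT, 137 loci were called higher, 0.158% beside 2.36% of all tested loci, and 32 lower, 0.0369% beside 0.176%. None reached an adjusted p below 0.05, beside 0.0137% of all tested loci that did so upward (edgeR). An unadjusted p below 0.05 was found at 1108, 1.28% beside 7.78% of all tested loci. DESeq2 put 60 higher and 15 lower at an adjusted p below 0.05, beside 4561 of all tested loci in either direction. With library sizes summed over every locus, 10 were higher and 557 lower, beside 4576 and 4966 of all tested loci. With library sizes alone the numbers were 72 and 119, beside 9606 and 1964. Without BC2, 82 loci were called in all, without BC3 107, and without WC1 277. The smallest p was that of chr5A:1144279-1151448, of 7170 bp and outside annotated genes. It had 5, 6 and 7 reads from WC, against 20, 59 and 60 from WP, 45, 40 and 46 from BC and 20, 34 and 50 from BP. WC was low and the other 3 groups overlapped, so the same locus led WP vs WC. Its log2 fold change was 3.34 ± 0.79 in BC vs WC (adjusted p = 0.0851) and 3.06 ± 0.78 in WP vs WC (adjusted p = 0.516). In the 12 fits that each left out 1 library, the BC vs WC value fell no lower than 3.17. At chr7B:685440569-685445705 the reads were 19, 5 and 12 from WC, 38, 24 and 6 from WP, 68, 43 and 71 from BC and 30, 63 and 55 from BP, with a log2 fold change of 2.86 ± 0.72 (adjusted p = 0.150). Lower in BC, besides chr7D:209066991-209072167 at -3.39 ± 0.96, was chr5D:312602118-312608316, with 80, 40 and 48 reads from WC, 38, 24 and 5 from WP, 7, 6 and 2 from BC and 9, 28 and 8 from BP (-2.92 ± 0.91), a call that was lost without BC3.

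In BP vs WP, light with PUT, 204 loci were called higher, 0.235% beside 1.39% of all tested loci, and 22 lower, 0.0254% beside 0.144%. Of these, 4 were higher at an adjusted p below 0.05 (edgeR), beside 0.0076% of all tested loci. DESeq2 put 39 higher and 2 lower at that level, beside 991 of all tested loci in either direction. The fit on these loci alone put 29 higher and 1 lower, and the likelihood ratio test 0, beside 58 of all tested loci. BP3 was the highest library in 169 of the 204. Without BP3, 33 were higher and 16 lower, without BP1 423 and 69, and without WC1 439 and 68, although WC1 is not in the comparison and enters only through the shared spread and the scaling. Without WP1 130 loci were called and without WP2 145. With RLE factors 585 were higher and 11 lower, beside 12463 and 572 of all tested loci. With library sizes over every locus the numbers were 38 and 166, beside 3215 and 2062. The leading locus, chr1D:361408330-361414628, of 6299 bp, had 19, 22 and 32 reads from WC, 6, 10 and 6 from WP, 32, 36 and 51 from BC and 24, 47 and 158 from BP. BP did not overlap WP, and BP3 had by far the most reads. Its log2 fold change was 3.67 ± 0.74 (adjusted p = 0.0151, edgeR) and 2.29 without BP3. The locus with the smallest p in a protein-coding gene, chr3B:14530512-14532257 at LOC123068271, had 21, 12 and 13 reads from WP and 16, 96 and 127 from BP, so BP1 overlapped WP, and its call was lost without BP3. Lower in BP was chr1B:117420224-117421014, with 30, 8 and 33 reads from WC, 32, 24 and 82 from WP, 45, 27 and 1 from BC and 3, 2 and 3 from BP. Its log2 fold change was -3.86 ± 0.95 (adjusted p = 0.204), and BC3, with a single read, lay below the BP libraries. At chr4A:164042366-164046585, BP had 2, 1 and 2 reads while every other library had between 12 and 39, a change of -3.94 ± 1.09 against WP (adjusted p = 0.438) and of -3.62 ± 1.09 against BC. Within LOC123077824, chr3D:125081057-125085589 had 28, 26 and 25 reads from WP and 5, 3 and 3 from BP, and apart from 1 read in BC2 the libraries of the other groups had 21 to 38 (log2 fold change -2.66 ± 0.99). That call was lost in 9 of the 12 fits that each left out 1 library.

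Pooled over light, few loci were called for PUT. With PUT 44 were called higher, 0.0508% beside 1.01% of all tested loci, and 13 lower, 0.015% beside 0.403%. None reached an adjusted p below 0.05, beside 0.00278% of all tested loci upward (edgeR). The smallest adjusted p was 0.129, and 660 loci, 0.761% beside 5.92% of all tested loci, had an unadjusted p below 0.05 (edgeR). DESeq2 put 2 higher and 1 lower at an adjusted p below 0.05, beside 43 of all tested loci in either direction. The median log2 fold change was 0.06, against 0.16 over all tested loci. With library sizes alone 25 were higher and 44 lower, beside 3918 and 3509 of all tested loci. With a filter at more than 20 reads the numbers were 30 and 38. They were 62 and 30 without BP3, 79 and 27 without WC1, 20 and 12 without BP2, and 21 and 16 without WP3. The leading locus, chr3D:247389853-247392088, outside annotated genes, had 5, 6 and 8 reads from WC, 27, 26 and 64 from WP, 8, 21 and 3 from BC and 56, 69 and 67 from BP. PUT libraries were higher within each light spectrum, without overlap. The log2 fold change was 2.55 ± 0.56 (adjusted p = 0.129), and no single library brought it below 2.28 when left out. At chr2A:354592709-354598477 every PUT library lay above every control library in scaled counts, with 6, 15 and 19 reads from WC, 39, 53 and 112 from WP, 10, 6 and 28 from BC and 75, 40 and 57 from BP (2.101 ± 0.50, adjusted p = 0.365). Such separation was found upward in 79 loci, 0.0911% beside 0.147% of all tested loci, and downward in 59, 0.0681% beside 0.0881%. In a protein-coding gene, chr6B:570613584-570615931 at LOC123134445 had 12, 5 and 14 reads from WC, 5, 25 and 130 from WP, 3, 21 and 39 from BC and 44, 101 and 43 from BP. PUT and control libraries overlapped, and its log2 fold change of 1.91 ± 0.51 went to 1.03 without WP3, where it was not called. Lower with PUT were chr7B:16843055-16845396, described next, and chr6A:16108515-16112036, which had 27, 43 and 10 reads from WC, 6, 4 and 4 from WP, 34, 48 and 37 from BC and 6, 12 and 18 from BP (-2.09 ± 0.62, adjusted p = 0.668). BP libraries overlapped WC3 at the latter.

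In WP vs WC, PUT under W light, 36 loci were called higher, 0.0415% beside 1.25% of all tested loci, and 9 lower, 0.0104% beside 0.436%. None had an adjusted p below 0.05, beside 0.000742% of all tested loci upward (edgeR). An unadjusted p below 0.05 was found at 494, 0.570% beside 6.59% of all tested loci. DESeq2 put 0 higher and 1 lower at an adjusted p below 0.05, beside 4 of all tested loci in either direction. With library sizes alone the balance turned, at 21 higher and 30 lower, beside 5343 and 3834 of all tested loci. It also turned in the fit on these loci alone, at 392 and 421. DESeq2 called 214 higher and 195 lower, beside 11866 and 6395 of all tested loci. Without BP3 the calls were 68 and 12, without WC1 52 and 21, without WC3 71 and 10, and without WP3 18 and 7. The smallest p of a fall belonged to chr7B:16843055-16845396, of 2342 bp and outside annotated genes. It had 66, 45 and 34 reads from WC, 7, 6 and 6 from WP, 51, 46 and 72 from BC and 33, 50 and 37 from BP. Only WP was low, and the other 9 libraries lay between 33 and 72. The log2 fold change was -2.74 ± 0.74 (adjusted p = 0.542), and it stayed called without each library in turn. At chr3D:115544864-115548933 the reads were 22, 41 and 24 from WC, 3, 2 and 6 from WP, 9, 30 and 24 from BC and 17, 47 and 61 from BP, a change of -2.81 ± 0.89 (adjusted p = 0.548) that was not called without WC2 or without WP2.

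In BP vs BC, PUT under B light, 33 loci were called higher, 0.0381% beside 0.196% of all tested loci, and 18 lower, 0.0208% beside 0.137%. None had an adjusted p below 0.05, beside 0.00148% of all tested loci upward (edgeR). An unadjusted p below 0.05 was found at 550, 0.634% beside 2.32% of all tested loci. DESeq2 put 0 at an adjusted p below 0.05, beside 0 of all tested loci. With library sizes alone 21 were higher and 28 lower, beside 859 and 1038 of all tested loci. The numbers were 26 and 52 with a filter at more than 20 reads, 64 and 28 without BP1, and 77 and 33 without WC1. Without BC3 29 were called in all and without BP2 31. At chr6A:227953084-227958020, which overlaps the long noncoding RNA gene LOC123127345, the reads were 12, 30 and 37 from WC, 36, 58 and 47 from WP, 13, 1 and 4 from BC and 98, 16 and 16 from BP. BC was low rather than BP high, apart from BP1, and the log2 fold change of 2.52 ± 0.82 went to 1.299 without BP1. It was not called without BP1, BC2 or BC3. In a protein-coding gene, chr4A:749365544-749367495 at LOC123083619 had 11, 4 and 20 reads from WC, 11, 10 and 17 from WP, 19, 47 and 36 from BC and 9, 5 and 2 from BP (-2.93 ± 1.00), a call that was lost without each of BC2, BC3, BP2 and BP3.

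The interaction, taken as the PUT effect under W minus the PUT effect under B light, was called positive at 12 loci, 0.0138% beside 0.601% of all tested loci, and negative at 6, 0.00692% beside 0.411%. The smallest adjusted p was 0.961 (edgeR), and 410 loci, 0.473% beside 4.88% of all tested loci, had an unadjusted p below 0.05. DESeq2 put 0 at an adjusted p below 0.05, beside 1 of all tested loci. The balance turned with RLE factors, at 7 positive and 34 negative beside 2825 and 3220 of all tested loci. With library sizes over every locus it turned too, at 5 and 30 beside 2143 and 3180. It also turned with DESeq2, at 177 and 241 beside 5829 and 4977 of all tested loci. In the fit on these loci alone it was 289 and 484. Without WC1 the numbers were 38 and 32, without BP3 28 and 13, and without BC2 14 and 23. At chr1B:117420224-117421014 the interaction was 4.42 ± 1.24 on the log2 scale, with the reads given above, PUT libraries overlapping the controls under W light and holding 2 or 3 reads under B light. At chr7B:244685739-244690968 the reads were 11, 29 and 3 from WC, 1, 3 and 1 from WP, 9, 9 and 7 from BC and 28, 41 and 52 from BP, an interaction of -4.96 ± 1.45 that was not called without WC2. PUT libraries were above control libraries under B light without overlap, and under W light they overlapped at WC3. Scaled counts moved in opposite directions without overlap, up under W and down under B light, at 245 loci, 0.283% beside 0.329% of all tested loci, and the other way at 161, 0.186% beside 0.179%.

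Most called loci lay outside protein-coding genes, as most of the tested ones did. In B vs W, 21 of the 499 higher loci and 3 of the 56 lower ones lay in a protein-coding gene, so that 1.07% of the 2236 tested loci in such genes were called, against 0.629% of those outside. In BC vs WC, 14 of the 137 higher loci and 3 of the 32 lower ones did, 0.760% of the loci in such genes against 0.180% outside, given without a test. In P vs C, 4 of the 44 higher loci and none of the 13 lower ones did, 0.179% of the loci in such genes against 0.0628% outside. The same split was not made for all tested loci, so no trait particular to these loci is read from it. Product names were at hand for 49 of the genes with a locus, all from the study's own tables of its results, so the lists by function were nearly empty and are no independent evidence. Among genes with names of light receptors, polyamine and S-adenosylmethionine metabolism, DNA methylation, transposon-derived proteins, and ribosomal proteins or histones, 0 held a locus. The names available for those lists were 1, 1, 1, 2 and 9, so nothing is read from the absence. Of 7 photosynthesis genes 2 held 1 locus each. Besides the ATP synthase gene, chr1A:569859899-569868978 overlaps LOC123068673, a chlorophyll a-b binding protein gene of the light-harvesting antenna, along with LOC123052796 and LOC123181749. It had 39, 21 and 12 reads from WC, 34, 3 and 25 from WP, 56, 55 and 54 from BC and 28, 47 and 40 from BP, with a log2 fold change of 1.41 ± 0.50 in B vs W, not called (adjusted p = 0.174, edgeR).

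Of 28 genes of resistance proteins and receptor kinases, which sense pathogens and other signals at the cell surface or inside the cell, 3 held a locus each. At chr7B:728885249-728892614 in LOC123156359, a cysteine-rich receptor-like kinase 2 gene, the reads were 40, 15 and 20 from WC, 16, 28 and 19 from WP, 51, 79 and 88 from BC and 55, 40 and 20 from BP. BC lay above both W groups, BP overlapped them, and the locus was called higher in B vs W (log2 fold change 1.52 ± 0.48, adjusted p = 0.118). At chr4A:748664478-748668345 in LOC123088599, a leucine-rich repeat receptor-like kinase gene, the reads were 31, 24 and 29, then 25, 11 and 15, then 48, 21 and 41, and 10, 38 and 5 in the same order, and at chr4A:750345407-750349236 in LOC123084598, a cysteine-rich receptor-like kinase 6 gene, they were 26, 16 and 27, then 6, 19 and 25, then 26, 26 and 21, and 13, 21 and 24. All groups overlapped in raw reads at both, while scaled counts of BC lay above those of WC and WP, and neither was called. No locus lay within 3000 bp of any of 19 genes that the study had singled out.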

How the data were processed

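MeDIP-seq reads of 12 leaf libraries were counted by the authors, with trimming by Trim Galore and cutadapt, alignment by BWA to IWGSC CS RefSeq v2.1 and definition of covered loci by bedtools. The deposited values are raw counts per locus, not normalized, and removal of duplicate reads is not given in the sources used here. Total counts per library were 15812048 to 21355140. Reads are not independent molecules, so precision from depth covers counting error only.

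Loci with a count above 0 in all 12 libraries and a mean below 40 were selected. The members and the gene lists were chosen with earlier results of these data known. The named loci were those that led each comparison upward and downward by p (also among loci that touch a gene), the highest means, the extremes of length and evenness, and loci at genes of named lists.

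Group differences were fitted with edgeR 4.0.16 in R 4.3.3 (quasi-likelihood test, TMM, Benjamini-Hochberg adjustment) on the 539307 loci where any group had 2 or more libraries with over 10 reads, with 1 coefficient per group. The study's own test was the likelihood ratio test of the same package, which was run as an alternative, as was DESeq2 1.42.0. Alternatives were other scalings, filters, thresholds and rules for the loci, a replicate block, fits on the compared groups only or on the loci covered in all 12 libraries alone (the last added after seeing the data) and leaving out each library. The code was tested on simulated data. Input DNA libraries were not used here. Genes were assigned with bedtools 2.31.1 from a RefSeq gene table of the same build, without strand, exons or sequence, so no exons or sequences are given. Coordinates are 1-based. Product names were taken from the study's tables and cover 1007 genes. The labels do not say whether same-numbered libraries were paired. Their deviations from the group means were not correlated on average (mean correlation 0.00 over 18 pairs, -0.08 to 0.13), which cannot settle it. Numbers were not used to pair samples in the main fit.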

Additional observations from a re-analysis of the deposited data

How the results depend on the processing

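Counts of called loci are given here for B vs W, BC vs WC, BP vs WP, WP vs WC, BP vs BC, P vs C and the interaction, in that order where all 7 are listed. The reported counts were 555, 169, 226, 45, 51, 57 and 18. DESeq2 gave 1887, 875, 1631, 409, 479, 327 and 418. Over all 539307 tested loci, the reported fit called 21443 higher and 1565 lower in B vs W, and DESeq2 called 37259 and 3287. In BC vs WC these were 12731 and 949 against 21882 and 3196, and in BP vs WP 7519 and 779 against 18615 and 2105. Calls over all tested loci thus moved with the setting too. Changes in the counts listed here are not read as results about these loci. A fit on the loci covered in all 12 libraries alone, chosen after seeing the data, gave 2549, 1365, 2408, 813, 766, 732 and 773. Without any filter the counts were 137, 45, 52, 17, 12, 33 and 7. At an adjusted p below 0.05 they were 22, 0, 4, 0, 0, 0 and 0, and among loci with a mean below 20 they were 317, 77, 107, 20, 22, 23 and 11. Demanding more than 1 read in each library left 369 for B vs W, 103 for BC vs WC, 27 for WP vs WC, 29 for BP vs BC, 37 for P vs C and 11 for the interaction. A filter at more than 5 reads gave 318 in B vs W, 106 in BC vs WC, 121 in BP vs WP, 33 in BP vs BC and 11 for the interaction. A filter on reads in at least 6 libraries gave 342, 104, 142, 31 and 11 in the same comparisons, and a filter at more than 20 reads gave 372 in BP vs WP, 78 in BP vs BC and 43 for the interaction. RLE scaling gave 964 in B vs W, 596 in BP vs WP and 41 for the interaction. Library sizes over every locus gave 1211 in B vs W, 567 in BC vs WC and 35 for the interaction, which had 29 with library sizes alone and 41 with the likelihood ratio test. With the replicate number as a block the counts were 345, 111, 103, 27, 26, 36 and 12. The labels do not say whether same-numbered libraries were paired, so it is not known whether this block matches the design. Without each library in turn, counts ranged from 182 to 897, 82 to 277, 49 to 507, 25 to 81, 29 to 110, 32 to 106 and 14 to 70, and a group left with 2 libraries was taken to vary like the others. The B minus W difference in the share of reads ranged from -2.95 to -2.37 points, and it was -3.85 points over the tested loci. The P minus C difference ranged from -0.00122 to 0.882 points, the former without BC2, and it was -1.34 points over the tested loci. The share of loci in a protein-coding gene was 1.15% with at least 0.5 of the locus inside, 6.82% with 3000 bp on each side, 2.22% for means below 20 and 2.65% with more than 1 read in each library. Of 441 values of single named loci under these settings, 426 kept direction and side of the threshold, 10 fell short of it, 5 passed it and 0 turned. Of 456 without 1 library, 34 fell short and 0 turned. The causes of these shifts were not tested. The groups had 3 libraries each. The median SE on the log2 scale, taken back from the test, was 0.77 in B vs W and over 1 in comparisons of 3 against 3. Small differences were thus not detectable in this fit.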

Other observations

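Ribosomal RNA genes, which stand in long tandem arrays, were touched by 58 of the loci covered in all 12 libraries. On chr1A lay 31 of them. The 41 that entered the test stood among 75 tested loci that touch such a gene. Their median length was 2636.5 bp and their mean count had a median of 10.7. The deepest, chr5A:713318971-713319838, had 32, 44 and 74 reads from WC, 43, 25 and 34 from WP, 45, 30 and 43 from BC and 46, 35 and 7 from BP. All groups overlapped there, with BP3 the lowest library, and the log2 fold change of B vs W was 0.00. The next, chr1D:29857277-29859750, had 25, 38 and 44 reads from WC, 36, 15 and 15 from WP, 47, 26 and 35 from BC and 58, 28 and 19 from BP, with overlap between all groups. Copies of these genes are nearly identical, so the counts of single loci in the arrays are uncertain.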
